A study of Mus musculus with 36 samples.

Results

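Flrt1, Gm38621 and Macrod1 are 3 overlapping features of mouse chromosome 19 among the 46893 features counted in gastrocnemius muscle. They were taken by gene name from the count table, together with the 39 other features that lie within 250 kb of them. Flrt1 encodes a leucine-rich repeat protein of the cell surface. Its family is known from axon guidance and cell adhesion, where it binds latrophilins and UNC5 receptors, and it can act on signalling through FGF receptors. Macrod1 encodes a macro domain hydrolase that removes ADP-ribose from proteins. It is found in mitochondria and is known for its high expression in skeletal muscle. Gm38621 is annotated as a long non-coding RNA.

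One library was made for each of 36 male C57BL/6 wild-type mice, in 6 groups of 6. NFD-C mice were sedentary and ate an AIN93G diet in which fat gave 16% of the energy, and HFD-C mice were sedentary on a high-fat diet (45%). The running mice ate the high-fat diet and had wheels. HFD-U mice ran freely (8.3 km/day, taken as 100%), and the daily distance was held to 2.1 km for HFD-25%, to 4.2 km for HFD-50% and to 6.3 km for HFD-75%. All groups were kept for 12 weeks. Whole muscle was sequenced, so fewer cells of a type and less RNA per cell cannot be told apart.

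In the count table Macrod1 spans chr19:7034065-7175427 on the plus strand, which is 141363 bases. Flrt1 lies inside this span on the minus strand, at chr19:7064829-7143548 over 78720 bases. Gm38621 lies inside the span of Flrt1 on the plus strand, at chr19:7095061-7113404 over 18344 bases. These positions are in the coordinates of GRCm39. In the GRCm38 annotation (GENCODE and RefSeq), Macrod1 has 11 exons, and its intron 3, chr19:7066204-7185575, is 119372 bases long. The RefSeq spans of Flrt1 (chr19:7087464-7166183) and Gm38621 (chr19:7123040-7136039) both lie wholly within this intron. A further feature, 5730409K12Rik, is annotated as a miscellaneous RNA on the plus strand and overlaps both Macrod1 and the 3′ end of Flrt1. The protocol names no step that marks strand, and reads of overlapping features on opposite strands cannot be told apart without one.

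**Figure D1:**
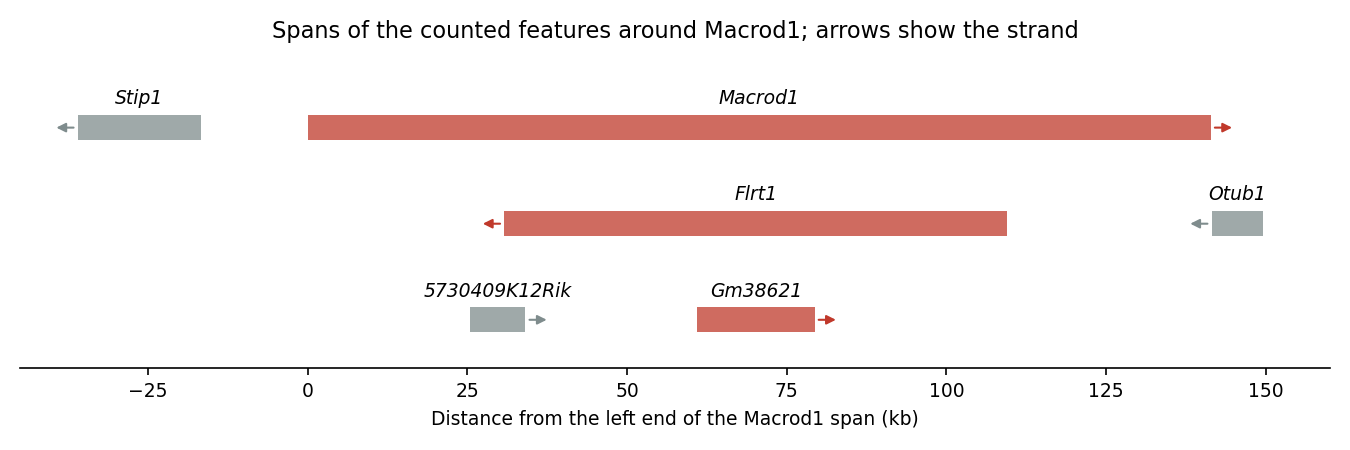
Horizontal bars show the spans of the counted features in kb from the left end of Macrod1, with the 3 genes in red, other features in grey and arrows for the strand. Flrt1, 78720 bases long, and Gm38621, 18344 bases long, lie inside the 141363 bases of Macrod1.

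The promoter sequences below show the starts of the host gene and of the RNA nested in it. RefSeq promoters (GRCm38.p6) were at hand for 2 of the 3 genes, Gm38621 and Macrod1. Each line gives the 250 bases before the start that the promoter table uses, 5′ to 3′ on the plus strand, with matches to the motifs searched in capitals. The windows are chr19:7122790-7123039 for Gm38621 and chr19:7056518-7056767 for Macrod1, and the counted Gm38621 model is longer than this RefSeq model, so its start may differ. For Macrod1 the table held 2 overlapping windows, and the left one is shown. Its right end lies inside the RefSeq span of the gene, which begins at position 7056728.
Gm38621: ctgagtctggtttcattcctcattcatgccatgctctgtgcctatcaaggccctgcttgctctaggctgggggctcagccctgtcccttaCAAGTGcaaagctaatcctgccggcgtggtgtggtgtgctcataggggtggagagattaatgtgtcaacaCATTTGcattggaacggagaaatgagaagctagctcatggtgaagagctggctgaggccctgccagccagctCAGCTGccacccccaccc
Macrod1: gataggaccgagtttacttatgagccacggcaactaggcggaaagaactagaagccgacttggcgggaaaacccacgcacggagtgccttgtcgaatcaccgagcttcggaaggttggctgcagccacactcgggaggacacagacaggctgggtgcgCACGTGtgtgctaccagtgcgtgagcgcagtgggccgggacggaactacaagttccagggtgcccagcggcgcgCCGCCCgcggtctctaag

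The Macrod1 window held 23 CpG dinucleotides at a GC content of 62.0%, and the Gm38621 window held 3 at 55.6%. Over all 32851 promoters the medians were 6 CpG and 52.4% GC. The E-box CANNTG matched 3 times before Gm38621 and once before Macrod1, where the match is the palindrome CACGTG that the other letters include. At least 1 E-box was held by 66.2% of all promoters and CACGTG by 6.02%. The GC box GGGCGG, which 32.7% of all promoters held, matched 1 time before Macrod1 and not before Gm38621. Neither window held TATAAA (12.4% of all promoters) or TGACGTCA (1.55%), with both strands searched for every motif.

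Libraries held 13060090 to 27981702 counts with a median of 16710687.5. Levels are given as CPM, the count of a feature scaled to a common library size with TMM factors. Some libraries stood apart. Their counts on 7 rRNA-linked features, which carry ribosomal RNA sequence or often take up such reads, made up 2.22 to 4.21% of the library in 10 mice and 0.432 to 1.04% in the other 26. The 10 libraries with a high share were all 6 NFD-C mice and HFD-C mice 1 to 4, whereas HFD-C mice 5 and 6 and all 24 running mice had a low share. No label names these sets, which were formed from the counts. The 8 muscle markers summed to 81147 to 161223 CPM over all libraries, so the labelled tissue was borne out by its genes.

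Flrt1 and Gm38621 were near the lower end of detection and Macrod1 was abundant. Per kb of gene model, the mean level over the 36 mice was 79.7 CPM for Macrod1, 0.258 CPM for Flrt1 and 0.153 CPM for Gm38621. Counts per library ran from 2364 to 4668 for Macrod1, from 10 to 193 for Flrt1, and from 2 to 193 for Gm38621. The smallest counts carry wide counting intervals. In the library with 2 counts, HFD-25% mouse 1, Gm38621 was at 0.115 CPM with an exact Poisson 95% interval of 0.0139 to 0.415 CPM. In the same library Flrt1 had 10 counts, or 0.575 CPM with an interval of 0.276 to 1.06 CPM. These intervals cover counting error only.

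Flrt1 was high in NFD-C, mixed in HFD-C and low in every running group. In NFD-C it ranged from 4.66 to 10.6 CPM with a median of 7.62. The 6 HFD-C mice, in the order of their numbers, had 6.09, 6.05, 6.97, 3.69, 2.83 and 0.892 CPM. HFD-C thus held both libraries near the NFD-C levels and libraries near those of running mice. HFD-25% mice ranged from 0.575 to 1.64 CPM with a median of 1.09. HFD-50% mice ranged from 0.858 to 2.43 CPM with a median of 1.75. HFD-75% mice ranged from 1.01 to 2.13 CPM with a median of 1.54, and HFD-U mice from 0.783 to 2.21 CPM with a median of 1.85. The 4 running groups overlapped each other throughout, and none of the 24 running mice reached the lowest NFD-C mouse. Such a gap, with all running mice lower, was held by 0.15% of 11993 features. Flrt1 was chosen by contrasts of these running mice with HFD-C, so the share is a description and no support. Its mean count in the running mice was 24.9, just under the minimum of 25 that it met together with NFD-C. Against HFD-C there was no gap, because 1 of the 6 HFD-C mice lay within the range of the running mice. A full gap to HFD-C with the running mice lower was held by 0.00833% of 12006 features.

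Gm38621 was also higher in most sedentary than in running mice, with a different order among the running groups. NFD-C mice ranged from 2.37 to 10.6 CPM with a median of 6.30. HFD-C mice 1 to 6 had 4.21, 2.95, 9.03, 4.20, 1.27 and 1.58 CPM, and mice 5 and 6, the lowest of the group for Flrt1, were again the lowest 2. The running mice ranged from 0.115 to 2.44 CPM with a median of 0.653. The HFD-50% median was 1.39 CPM and the HFD-75% median 0.892 CPM, while those of HFD-25% (0.627 CPM) and HFD-U (0.452 CPM) were lower. All running groups overlapped, and 23 of the 24 running mice lay below the lowest NFD-C mouse. The share of all features that come this close to a full gap was not counted. The exception was HFD-25% mouse 6, whose level was 2.44 CPM against 2.37 CPM in NFD-C mouse 1.

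Macrod1, the host of both, did not share this order. Its mean was 170 ± 10.2 CPM (SD, n = 6) in NFD-C, 193 ± 45.7 in HFD-C, and 191 ± 32.5, 187 ± 23.1, 199 ± 8.96 and 184 ± 8.52 in the running groups by distance. The HFD-C mice had 164, 178, 161, 156, 231 and 267 CPM in the order of their numbers. The same mice 5 and 6 that were lowest for Flrt1 were thus the highest for Macrod1, and mouse 6 was above every running mouse, whose highest level was 234 CPM. All 6 NFD-C mice lay within the range of the running mice.

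**Figure D2:**
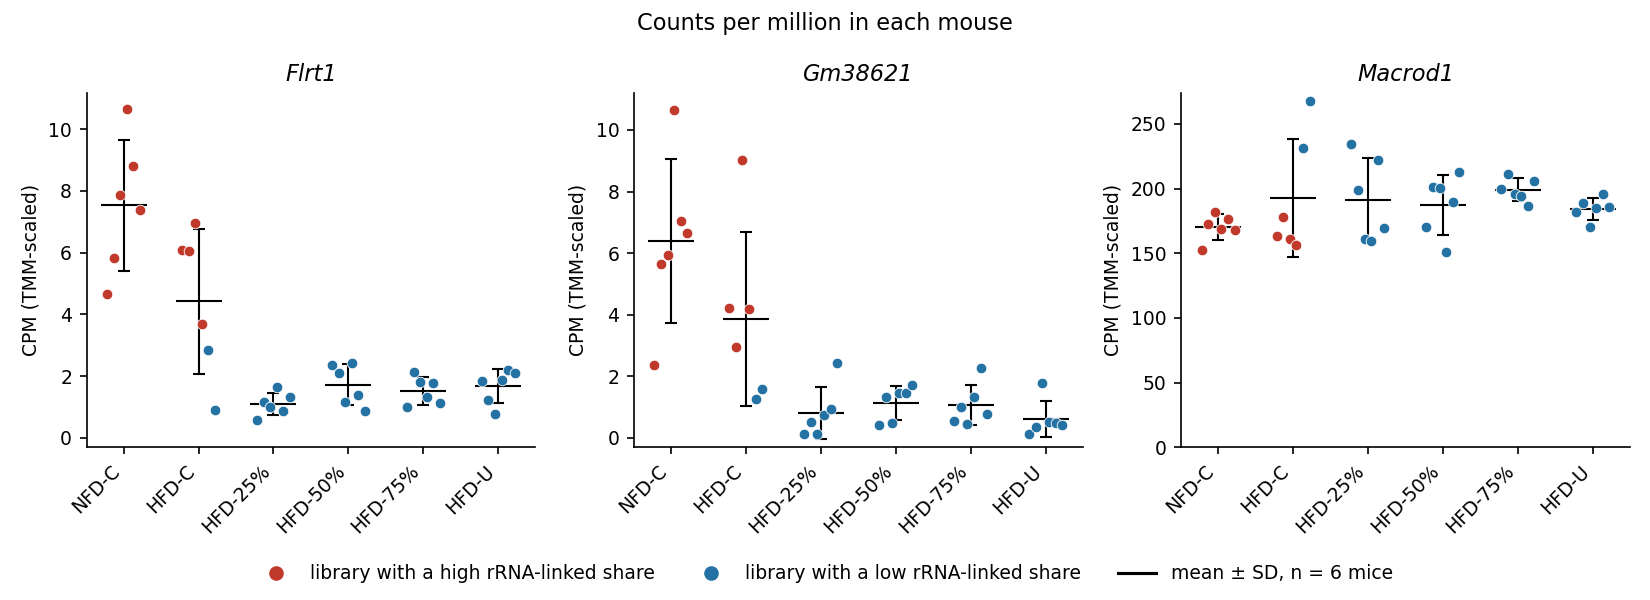
Each point is the TMM-scaled CPM of 1 mouse, with the mean ± SD of the 6 mice of a group in black and the colour giving the rRNA-linked share of the library. Flrt1 and Gm38621 are highest in the red libraries, which are all of NFD-C and HFD-C mice 1 to 4, while Macrod1 lies between 151 and 267 CPM in all groups.

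The running groups against HFD-C set running mice beside sedentary mice on the high-fat diet, and they also differ in the rRNA-linked share of their libraries. The 3 genes were chosen by their counts in this contrast, so their differences are described without a test. Flrt1 was lower than in HFD-C by a log2 fold change of -2.01 (SE 0.41), -1.36 (SE 0.41), -1.53 (SE 0.39) and -1.41 (SE 0.40), from the shortest distance to the longest. For Gm38621 the log2 fold changes were -2.27 (SE 0.62), -1.76 (SE 0.48), -1.84 (SE 0.49) and -2.62 (SE 0.57) in the same order. Macrod1 differed by -0.02 (SE 0.16), -0.04 (SE 0.16), 0.05 (SE 0.14) and -0.06 (SE 0.14), each less than its error. These 4 contrasts share the HFD-C libraries.

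The size of the Flrt1 and Gm38621 differences depended on which HFD-C libraries entered. With only the low-share libraries and no minimum count, HFD-C was represented by mice 5 and 6, and the log2 fold changes of Flrt1 were -0.75 (SE 0.54), -0.13 (SE 0.55), -0.28 (SE 0.51) and -0.16 (SE 0.52) in HFD-25% to HFD-U. Those of Gm38621 were -0.81 (SE 0.77), -0.33 (SE 0.62), -0.39 (SE 0.59) and -1.16 (SE 0.71). Macrod1 then became lower in the running mice, by -0.36 (SE 0.20), -0.42 (SE 0.23), -0.31 (SE 0.17) and -0.42 (SE 0.17). In these fits the median over all features was itself at 0.17, 0.16, 0.11 and 0.12. Within HFD-C itself, Flrt1 averaged 5.70 ± 1.40 CPM (SD, n = 4) in the high-share libraries, and the low-share mice 5 and 6 averaged 1.86 CPM. The part of the rRNA-linked share in the difference between running and sedentary mice was not tested, and no running mouse had a high share.

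A ratio within a library does not depend on the scaling between libraries. Per 100 Macrod1 counts, NFD-C libraries held 3.06 to 6.31 Flrt1 counts, HFD-C libraries 0.334 to 4.32, and running libraries 0.245 to 1.61. The ratio of Flrt1 to Macrod1 separated NFD-C from all running mice, as the CPM values did. It uses the same Flrt1 counts beside a Macrod1 level of 151 to 267 CPM, so it is no independent support. HFD-C mice 1 to 4 ranged from 2.37 to 4.32, and mice 5 and 6 had 1.23 and 0.334, which are values within the running range. For Gm38621 the same ratio was 1.56 to 6.31 in NFD-C, 1.66 to 5.61 in HFD-C mice 1 to 4, 0.548 and 0.590 in HFD-C mice 5 and 6, and 0.0490 to 1.44 in running mice. Gm38621 and Flrt1 did not stay in a fixed ratio to each other. There were 0.509 to 1 Gm38621 counts per Flrt1 count in NFD-C and 0.0645 to 2.29 in running mice, where both counts were small.

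**Figure D3:**
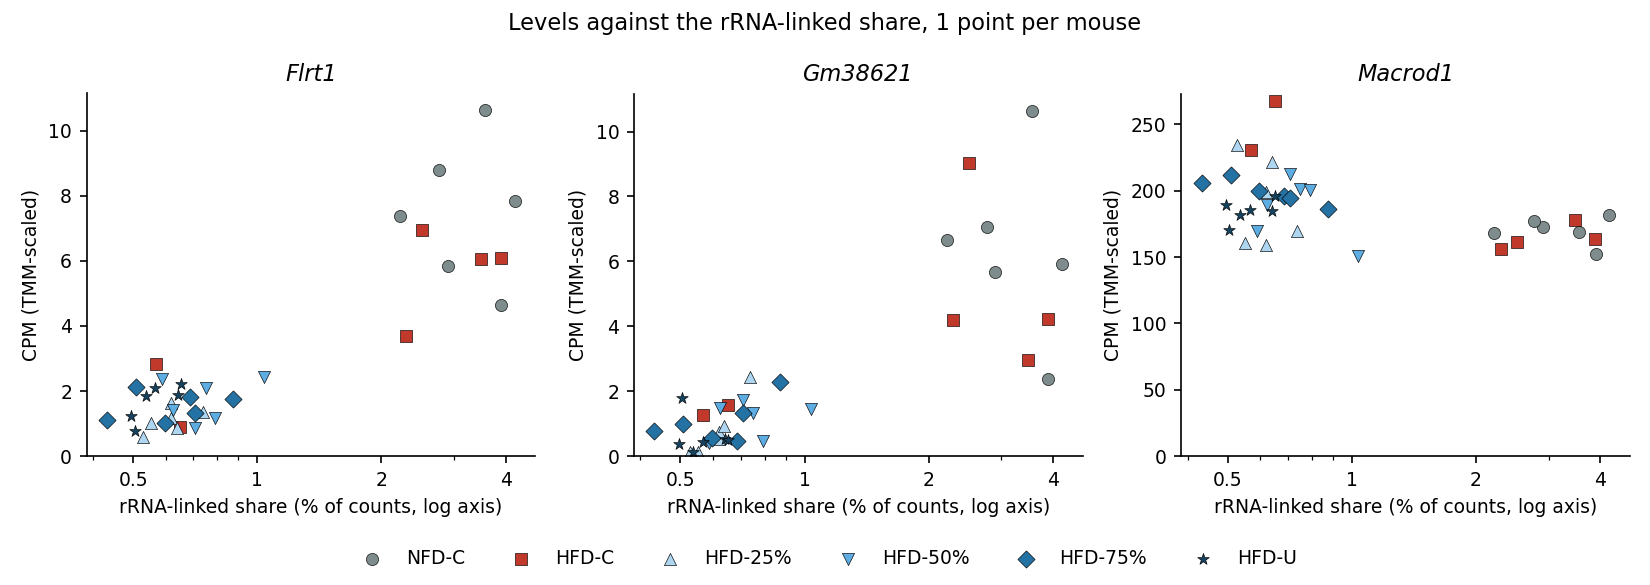
Each point is 1 mouse, with the rRNA-linked share of its library on a log axis (% of counts) against the TMM-scaled CPM of the gene. Flrt1 reaches at most 2.83 CPM in the 26 libraries with a low share and is at least 3.69 CPM in the 10 with a high share, whereas the 2 HFD-C mice with a low share have the highest and the third highest Macrod1.

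The comparison of NFD-C with HFD-C sets the diets side by side in sedentary mice. The log2 fold change of Flrt1 was 0.76 (SE 0.35, unadjusted p = 0.0463, adjusted p = 0.9997 with edgeR's quasi-likelihood test). For Gm38621 it was 0.72 (SE 0.42, adjusted p = 0.9997), and for Macrod1 -0.17 (SE 0.14, adjusted p = 0.9997). The unadjusted threshold of 0.05 was met by 4.12% of the 12247 features of this fit, and 0% met it after adjustment, against 2 features with DESeq2. The HFD-C arm also served in the contrasts by which the genes were chosen. Among high-share libraries alone the log2 fold change of Flrt1 was 0.40 (SE 0.25, adjusted p = 0.969), and that of Macrod1 turned to 0.05 (SE 0.10, adjusted p = 0.986).

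HFD-U against NFD-C sets unrestricted running on the high-fat diet against sedentary mice on the lower-fat diet. Flrt1 fell by 2.17 on the log2 scale (SE 0.27, adjusted p = 0.000460) and Gm38621 fell by 3.32 (SE 0.47, adjusted p = 0.00161), in edgeR's quasi-likelihood test over 11992 features. After adjustment 0.759% of these features passed, and 0.6% passed and were lower. All 6 HFD-U mice were below all 6 NFD-C mice for both genes, which was so for 0.792% of the features. The log2 fold change of Macrod1 was 0.12 (SE 0.083, adjusted p = 0.688). Diet, running and the rRNA-linked share all differ between these groups and cannot be told apart. HFD-U was an arm of the contrasts that chose the genes, so these p-values reuse values of that choice and are no independent support. With the share as a covariate, the log2 fold change of Flrt1 was -1.48 (SE 1.27, adjusted p = 0.725) and that of Gm38621 -4.88 (SE 2.16, adjusted p = 0.394).

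Distance made no detectable difference among the 24 running mice. The range of the 4 group means, on the log2 scale, was 0.65 for Flrt1 (adjusted p = 0.839 with edgeR's quasi-likelihood test), 0.85 for Gm38621 (adjusted p = 0.932) and 0.11 for Macrod1 (adjusted p = 0.967). Of the 13796 features of this fit, 0.0362% passed after adjustment. The linear trend, as log2 change from 0 to 100% of the unrestricted distance, was 0.63 (SE 0.41, adjusted p = 0.755) for Flrt1. It was -0.40 (SE 0.81, adjusted p = 0.924) for Gm38621 and -0.02 (SE 0.13, adjusted p = 0.984) for Macrod1. After adjustment 0% of the features passed the linear test and 7.1% met the unadjusted threshold, against 1 feature that passed with DESeq2.

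Deviations from the group mean were correlated among mice, in 12 relations over the 24 running mice and over the 6 NFD-C mice. In NFD-C, Flrt1 and Gm38621 went together, with r = 0.93 (exact permutation p = 0.00417, adjusted p = 0.05, n = 6) and rho = 0.94 (exact permutation p = 0.0167, adjusted p = 0.2). Without the 2 mice farthest from the median, r was 0.78 over 4 mice. In the running mice the same pair had r = -0.03 (permutation p = 0.907) and rho = 0.05 (permutation p = 0.822), at counts of 2 to 47. Flrt1 and Macrod1 had r = -0.46 in the running mice (permutation p = 0.0343, adjusted p = 0.187) and rho = -0.44 (permutation p = 0.0555, adjusted p = 0.245), and r was -0.54 without the 2 mice farthest from the median. The rRNA-linked share had r = 0.40 with Gm38621 (permutation p = 0.0467, adjusted p = 0.187), 0.37 with Flrt1 (permutation p = 0.0948, adjusted p = 0.284) and -0.30 with Macrod1 (permutation p = 0.127, adjusted p = 0.305) over the running mice, with rho of 0.40 (adjusted p = 0.245), 0.33 (adjusted p = 0.419) and -0.24 (adjusted p = 0.631). Leaving out the 2 mice farthest from the median gave 0.32, 0.32 and -0.27. In NFD-C the share had r of the other sign with Gm38621 (r = -0.30, exact permutation p = 0.611, rho = -0.37) and Flrt1 (r = -0.10, exact permutation p = 0.835, rho = -0.09). With Macrod1 it had r = -0.09 (exact permutation p = 0.872, rho = 0.20) there. No relation of the running mice passed after adjustment over the 12.

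The nearest genes outside the overlap did not pass the test in any running group. Stip1, a co-chaperone of heat shock proteins on the left, had log2 fold changes of 0.14, -0.17, 0.10 and 0.13 against HFD-C in HFD-25% to HFD-U, with adjusted p from 0.751 to 0.999. Otub1, a deubiquitinase on the right, had -0.21, -0.20, -0.11 and -0.27, with adjusted p from 0.620 to 0.999. Of the 39 neighbours, 21 or 22 were tested in each fit of 2 groups. With the unadjusted threshold of 0.05, 1 of 22 was called for HFD-25% and 1 of 22 for HFD-75%, against 0 of 21 for HFD-50% and for HFD-U. Over all features the shares were 6.98, 5.47, 10.7 and 5.46% in these 4 groups, and 0.0082% passed after adjustment in HFD-25% and 0% in the others.

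In both cases the feature called was 5730409K12Rik, which overlaps Flrt1. NFD-C mice had 1.23 to 4.04 CPM of it with a median of 2.36. The HFD-C mice had 1.77, 2.07, 6.61, 3.01, 0.120 and 0 CPM, and the running mice 0.0579 to 0.763 CPM. Mice 5 and 6 of HFD-C were again with the running mice. Its log2 fold change was -2.63 (SE 0.83, unadjusted p = 0.00644, adjusted p = 0.482) in HFD-25% and -2.28 (SE 0.77, unadjusted p = 0.00962, adjusted p = 0.650) in HFD-75%. In the fits of the other 2 running groups its mean count was below the minimum of 25. It met this minimum in HFD-25% and HFD-75% only through HFD-C, with a mean count of 44.7 there against 6.33 and 8. A feature admitted in this way can hardly be called other than lower, so these p-values are no support. The other tested neighbours stayed between -0.27 and 0.31 in all 4 contrasts, and neighbours below the minimum count are not covered by this range. In HFD-U against NFD-C, Vegfb (0.34), an endothelial growth factor, Mark2 (-0.18), a kinase of microtubule-binding proteins, and Spindoc (-0.33) met the unadjusted threshold of edgeR's test and none the adjusted one (adjusted p of 0.436, 0.447 and 0.339), with 10.5% of all features called. These 3 genes were named after their values were seen.

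**Figure D4:**
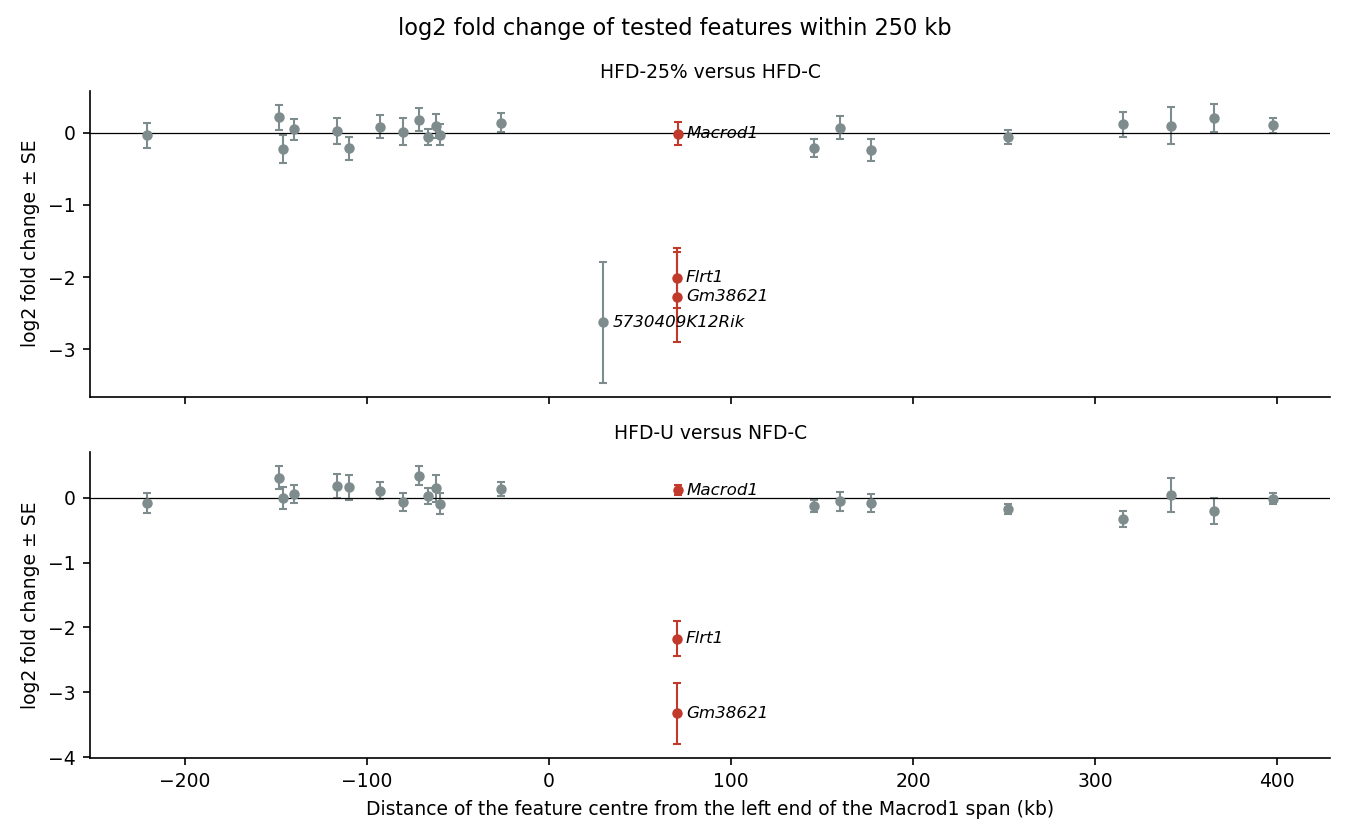
Points give the log2 fold change ± SE of each tested feature within 250 kb, placed by the distance of its centre from the left end of Macrod1 (kb), with the 3 genes in red. Flrt1, Gm38621 and, where tested, 5730409K12Rik lie below -2 in both comparisons, and all other features, Macrod1 included, lie between -0.33 and 0.34.

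The most abundant genes of the FLRT family and its partners, per kb, were Fgfr1 at 23.2 CPM, Adgrl1 at 2.62 CPM and Unc5a at 1.42 CPM, beside 0.258 CPM for Flrt1. Of 11 genes in the list, 6 were tested, and 0 to 2 met the unadjusted threshold in each contrast with HFD-C, all lower in running mice, and 0 passed after adjustment. Over all features, 3.58, 4.89, 3.16 and 3.31% met it and were lower, by distance. The latrophilin gene Adgrl1 had log2 fold changes of -0.54 (unadjusted p = 0.0197), -0.55 (unadjusted p = 0.0267), -0.32 (unadjusted p = 0.0896) and -0.46 (unadjusted p = 0.0262) in HFD-25% to HFD-U, with adjusted p from 0.400 to 0.978. Its mean was 32.2 ± 8.80 CPM (SD, n = 6) in HFD-C and 23.2 ± 5.53 CPM (n = 24) in running mice, and the 2 low-share HFD-C mice averaged 28.5 CPM. Fgfr1, an FGF receptor, had log2 fold changes between -0.09 and 0.35, and Unc5a, a netrin receptor, between -0.31 and -0.01, none past an unadjusted p of 0.05. Flrt2, another member of the family, ranged from -0.29 to -0.08. Unc5b, named after its values were seen, had log2 fold changes of -0.15, -0.32, -0.49 and -1.16 by distance, of which the last met the unadjusted threshold (SE 0.38, unadjusted p = 0.00777, adjusted p = 0.627). Among the 4 running groups its difference did not pass after adjustment with edgeR's test (adjusted p = 0.802). The median of the tested list lay between -0.26 and -0.13 in the 4 contrasts, beside -0.01 to 0.01 over all features.

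The list around Macrod1 held 18 symbols of macro domain and ADP-ribose genes, with older and newer symbols of the same gene among them. Of these symbols, 15 were in the table and 14 were tested. In each contrast with HFD-C, 0 or 1 met the unadjusted threshold and 0 the adjusted one, beside 5.46 to 10.7% of all features at the unadjusted threshold. Per kb, the most abundant were Parp3, an ADP-ribosyltransferase of DNA repair, at 26.1 CPM, Adprh, an ADP-ribosylarginine hydrolase, at 17.0 CPM, and its relative Adprhl1 at 16.6 CPM. Parp3 had log2 fold changes of -0.17 to 0.13 and Adprh of at most 0.11 in size. Adprhl1 ranged from -0.15 to 0.12 against HFD-C and was at -0.77 (SE 0.32, unadjusted p = 0.0269, adjusted p = 0.9997) in NFD-C against HFD-C. The single calls were Parp14 in HFD-25%, at 0.59 (adjusted p = 0.701), and Adprhl2 in HFD-50% and HFD-75%, at 0.45 (adjusted p = 0.430) and 0.53 (adjusted p = 0.579), both named after their values were seen. The list medians were -0.02 to 0.10.

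Over all 36 mice, the genes whose level was most like that of Flrt1 were Kmt2d (r = 0.89 of log2 CPM), a histone methyltransferase, and 4 of the rRNA-linked features, among them LOC118568007 (0.87), Lars2 (0.87) and LOC118568312 (0.86), among 12053 features. For Gm38621 they were the long non-coding RNA Gm51671 (0.87), Kmt2d (0.85), Lars2 (0.83), LOC118568007 (0.83) and Gm31288 (0.83). Gm38621 was in place 13 for Flrt1, and Flrt1 in place 11 for Gm38621, at r = 0.80. The pattern of both genes over all 36 points ran with the split of the libraries into a high and a low rRNA-linked share. Apart from HFD-C mice 5 and 6, this split is also that of sedentary and running mice. Share and running therefore cannot be told apart in these correlations. Macrod1 went with other genes, namely Tle5 (0.84), Rp9 (0.82), Rpl3l (0.80), Oaz2 (0.78) and Pdap1 (0.76). With Flrt1 its r was -0.52, which put Flrt1 in place 11939 of the 12053.

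Between the 2 sets of libraries, Flrt1 did not overlap. It reached 3.69 to 10.6 CPM in the high set and 0.575 to 2.83 CPM in the low set, a gap held by 0.116% of 12053 features. The choice of Flrt1 used the running and HFD-C mice of these sets, so this share is no support. Gm38621 overlapped by 1 mouse, HFD-25% mouse 6, and the share of all features with so small an overlap was not counted. In each of the 4 contrasts with HFD-C, 5 of the 7 rRNA-linked features met the unadjusted threshold and were lower in running mice, with list medians of -2.59 to -2.79 on the log2 scale. Over all features, 3.58, 4.89, 3.16 and 3.31% met this threshold and were lower. The library sets were formed from the counts of these same 7 features, so their calls are no separate support for the split. Those that did not meet the threshold were mt-Rnr1 (-0.34, 0.37, -0.07 and -0.35) and mt-Rnr2 (-0.29, 0.32, -0.08 and -0.24). Of the 10 nuclear or non-polyadenylated RNAs of a further list that were in the table, 5 were tested, and 2 to 5 were lower past the unadjusted threshold. The medians of the 5 were -0.45 to -0.83. Rn7sk, a nuclear small RNA that regulates transcription elongation, had the largest log2 fold changes of the list, -3.03, -3.10, -3.70 and -3.90. Among running mice alone its mean count was below the minimum of those fits. It thus entered the contrasts through the HFD-C libraries, and a feature admitted in this way can hardly be called other than lower. Its values, which are among the lower calls of each contrast, are therefore no support. Meg3, an imprinted long non-coding RNA, had -0.64, -0.57, -0.52 and -0.77. Kcnq1ot1, an imprinted antisense RNA, had -0.49, -0.33, -0.53 and -0.83, and Malat1, an abundant nuclear RNA, had -0.50, -0.45, -0.83 and -0.84. Neat1, the RNA of paraspeckles, had -0.05, 0.32, 0.13 and -0.54. The part of these features in the levels of Flrt1 and Gm38621 was not tested.

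Summed levels of markers of other cells overlapped between NFD-C, HFD-C and the running mice. The 5 Schwann cell markers summed to 33.0 to 296 CPM in NFD-C, 43.1 to 205 in HFD-C and 33.1 to 143 in running mice. The 5 adipocyte markers summed to 1.21 to 46.3, 2.63 to 66.3 and 1.10 to 77.5 CPM, and the 4 fibroblast markers to 244 to 375, 202 to 420 and 175 to 419 CPM. Blood, immune and endothelial sums overlapped as well, and every marker list was in the table in full. Endothelial medians were 138 CPM in NFD-C, 141 in HFD-C and 149 in running mice. Fibroblast medians were 337, 346 and 302 CPM. Within HFD-C, 2 lists of other cells did not overlap between mice 1 to 4 and mice 5 and 6, a split formed from the counts. The adipocyte, blood, Schwann cell and immune sums overlapped there. With so few mice a lack of overlap can easily arise by chance, and the share of all features without overlap in this split was not counted. The fibroblast markers summed to 340 to 420 CPM in mice 1 to 4 and 202 to 295 CPM in mice 5 and 6, and the 4 endothelial markers to 137 to 197 CPM and 104 to 127 CPM. The 8 muscle markers moved the other way, as Macrod1 did, with 98356 to 130839 CPM in mice 1 to 4 and 139939 to 161223 CPM in mice 5 and 6. The part of these cells in the levels of the 3 genes was not tested.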

How the data were processed

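RNA from gastrocnemius muscle of 36 mice was poly(A)-selected and sequenced as 150 bp paired-end reads, 1 library per mouse. Per the labels and the paper's methods, the authors aligned reads with HISAT2 2.0.5 and counted them per gene with featureCounts 1.5.0-p3; the strand setting is not given in the sources used here. The deposited values are raw counts, with no normalization. The labels name mm10, while the chromosome accessions in the table are those of GRCm39, so table positions were used as given and annotation positions separately as GRCm38.

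The tests came from edgeR 4.0.16 under R 4.3.3 (TMM, quasi-likelihood F-test, two-sided, Benjamini-Hochberg adjustment over all features of a fit), keeping features with a mean count of at least 25. Among running mice alone the minimum was 10, set after seeing that 25 would leave out Flrt1 and Gm38621. SE is the log2 fold change divided by the square root of F. Each pair of groups was fitted alone. Correlations used log2(CPM + 0.5) and 100000 permutations within groups, or exact permutation over 6 mice (scipy). The alternatives were DESeq2 1.42.0, RLE size factors, no minimum count, removal of the rRNA-linked features, their share as a covariate, 1 fit over all 6 groups, the mouse number as a block, high-share libraries alone, low-share libraries alone, and leaving out each mouse. Chosen after seeing the data were the library set as a term, low-share libraries with no minimum count, and a minimum of 25 among running mice.

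The members and lists were chosen with earlier results of these data known. Named genes are the members, overlapping and nearest features, list genes that are the 3 most abundant per kb or have an unadjusted p of at most 0.05 in 3 or more running groups, and the 5 most similar genes. Replicates of a group differed by 13.4 to 162 times the sampling variance, so no library was counted as a duplicate. Mice share the numbers 1 to 6 between groups, and no source says that a number marks a litter or day. Same-numbered mice of HFD-U and HFD-C deviated together in all 6 pairs (correlation 0.132 to 0.536), and in 1 to 5 of 6 pairs in the other comparisons. The scripts were tested on simulated counts.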

Additional observations from a re-analysis of the deposited data

Results flagged for a closer look

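Of 18 groups of 6 values (3 genes in 6 groups), 2 held a mouse far from the others, both for Gm38621. In HFD-25%, mouse 6 had 2.44 CPM against 0.926 CPM in the next highest mouse, a gap of 0.650 of the range of the group. In HFD-U, mouse 3 had 1.79 CPM against 0.533 CPM in the next highest mouse, a gap of 0.752 of the range. Both gaps are past the 95% critical value of Dixon's test for 6 samples, which chance passes in about 1 in 20 groups. Flrt1 of the same libraries was at 1.34 and 0.783 CPM, and the HFD-U mouse was the lowest of its group for Flrt1. Without that mouse the log2 fold change of Gm38621 in HFD-U against NFD-C was -4.04 in place of -3.32, and without HFD-25% mouse 6 its change in HFD-25% against HFD-C was -2.99 in place of -2.27.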

How the results depend on the processing

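The 3 genes were recomputed under each alternative, which gave 591 values for 36 results, and 537 of them moved by less than the spread between mice or, where a test was run, kept their direction and their side of the threshold. The others came from how the rRNA-linked share entered and from single mice. Values below are log2 changes against HFD-C in the order of distance, from HFD-25% to HFD-U, and the cause of each move was not tested. With the share as a covariate, Flrt1 had -0.84, -0.42, -0.44 and -0.16, Gm38621 had -0.88, -0.72, -0.56 and -1.34, and Macrod1 had -0.36, -0.32, -0.27 and -0.41. Where the fit had a term for the library set, Flrt1 had -0.77, -0.13, -0.29 and -0.18, Gm38621 had -0.82, -0.32, -0.39 and -1.17, and Macrod1 had -0.39, -0.41, -0.32 and -0.44. With low-share libraries and the minimum count, Flrt1 had -0.11, -0.29 and -0.17 from HFD-50% on, and Macrod1 had -0.37, -0.40, -0.32 and -0.43, while Gm38621 and Flrt1 in HFD-25% fell below the minimum. Without a minimum count, Flrt1 had -0.75, -0.13, -0.28 and -0.16, Gm38621 had -0.81, -0.33, -0.39 and -1.16, and Macrod1 had -0.36, -0.42, -0.31 and -0.42. In NFD-C against HFD-C, Macrod1 turned to 0.0457 with the covariate, 0.0479 in high-share libraries and 0.0558 with the set term. In HFD-U against NFD-C, Flrt1 (-1.48, adjusted p = 0.725) and Gm38621 (-4.88, adjusted p = 0.394) no longer passed with the covariate. The linear trend of Gm38621 turned to 0.22 with the covariate. A minimum count of 25 among running mice tested Macrod1 alone.

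Leaving out single mice kept every log2 change of Flrt1 and Gm38621 against HFD-C negative, from -2.21 to -1.18 for Flrt1 and from -3.33 to -1.31 for Gm38621, whose smallest changes came without HFD-C mouse 3. Macrod1, near 0 against HFD-C, took either sign, from -0.08 to 0.10 in HFD-25%, from -0.09 to 0.08 in HFD-50%, from -0.00 to 0.16 in HFD-75% and from -0.11 to 0.05 in HFD-U. In HFD-U against NFD-C, Flrt1 ran from -2.29 to -2.02 and Gm38621 from -4.04 to -3.10. Both stayed past the adjusted threshold in each such fit, though HFD-U had a part in choosing the genes and Gm38621 met the minimum count through NFD-C. The linear trend ran from -0.91 to 0.21 for Gm38621, the ends being without HFD-U mouse 3 and without HFD-25% mouse 6. For Macrod1 it ran from -0.0719 to 0.0681, with the sign turned without HFD-U mouse 1 (0.00088) or 3 (0.0179) and without HFD-25% mouse 1 (0.0681) or 5 (0.0392).

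With the mouse number as a replicate block, the changes against HFD-C were -1.86, -1.23, -1.37 and -1.27 for Flrt1 and -2.37, -1.56, -1.70 and -2.68 for Gm38621. In HFD-U against NFD-C they were -2.17 (adjusted p = 0.00241) and -3.50 (adjusted p = 0.00115), and the block changed no call of the 3 genes. Over all features the block moved the calls after adjustment from 0 to 50 in HFD-50%, from 0 to 11 in HFD-U against HFD-C, and from 91 to 164 in HFD-U against NFD-C. DESeq2 called 44, 160, 40 and 28 features in the 4 contrasts with HFD-C, where edgeR called 1, 0, 0 and 0, and 255 in HFD-U against NFD-C. At means of 24.9 counts for Flrt1 and 15.2 for Gm38621 in running mice, counting error limits what can be seen among them.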

Other observations

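Flrt1 and Gm38621 belong to the features whose whole span lies inside a longer protein-coding gene, a class that was looked at after the values of these genes were seen. In HFD-U against NFD-C, 352 such nested features were tested and 77 of them (21.9%) were lower at an unadjusted p of at most 0.05, beside 5.38% of the 11640 features that are not nested. Higher were 5.40% and 4.65%. In the contrasts of the running groups with HFD-C the nested features were lower in 7.65% (HFD-25%), 7.51% (HFD-50%), 9.01% (HFD-75%) and 9.23% (HFD-U). Of the others, 3.46, 4.82, 2.99 and 3.14% were lower. In NFD-C against HFD-C, where no mice ran, 8.35% of 395 nested features were higher and 2.28% lower. Of the features that are not nested, 1.76% were higher and 2.13% lower. In HFD-U against NFD-C, diet, running and the rRNA-linked share cannot be told apart. The share differs in the other contrasts too, and its part was not tested. The contrasts with HFD-C share its libraries, and Flrt1 and Gm38621 are themselves among the nested features. A feature can meet the minimum count through its higher group alone, and the nested and other features were not matched by level. These shares are a description, with no test.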
